A study of Mus musculus with 7 samples.

Results

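The genes that carry bile acids and conjugated steroids across the kidney tubule, with the bile acid receptor FXR and its partner SHP, were followed in kidneys of LBR-null mice. The set holds 10 of the 24328 symbols in the deposited tables and was taken by name: Slc51a, Slc51b, Slc10a2, Nr1h4, Nr0b2, Slco1a1, Slco1a6, Abcc2, Abcc3 and Abcc4. It was chosen by the measured difference between the genotypes in these libraries, so the genotype difference of each gene is given as a description and without a test. The study asked what loss of the lamin B receptor (LBR), a protein of the inner nuclear membrane that tethers heterochromatin, does to expression of genes with and without CpG islands.

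Poly(A) RNA was sequenced from the right kidney of 3 LBR-null mice (genotype Lbric-J/ic-J, numbered 4001, 4002 and 4007) and of 1 WT littermate (genotype Lbr+/+, number 4009). All were C57BL/6J mice of 4 weeks kept on one chow, and the labels name no treatment. The Lbric-J allele is carried in every tissue from conception, so a kidney difference need not arise in the kidney. Mouse 4002 was sequenced as 1 library and each other mouse as 2, with 20694016 to 25296831 reads on genes in LBR-null libraries and 22969010 to 26333284 in WT libraries. Libraries of a mouse share its kidney, so they were averaged, and errors are SDs over the 3 LBR-null mice. The single WT mouse gives no spread between WT animals. A level is in normalized counts, which are reads divided by the size factor of the library, and 1 read was worth 0.787 to 1.15 normalized counts.

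Several facts about the animals touch all results. Lbr RNA was at 378 ± 81.8 normalized counts (SD, n = 3) in LBR-null mice and at 398 in WT, so the level of this transcript does not check the genotype. The labels give no sex. Xist, the RNA of the inactive X chromosome, was at 5352 to 10163 normalized counts in the libraries of mice 4001 and 4007, at 65.3 in mouse 4002 and at 31.7 to 39.4 in WT. The Y-linked gene Ddx3y was at 39.2 to 149 in mice 4001 and 4007, at 1516 in mouse 4002 and at 1269 to 1299 in WT. Mouse 4002 is therefore the LBR-null animal whose Xist and Ddx3y levels resemble those of WT, and its own difference from WT is given for each of the 10 genes. For mice 4001 and 4007 the genotype and whatever goes with Xist cannot be told apart in a comparison with this WT mouse.

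As background, bile acids filtered at the glomerulus are taken back from the tubular fluid by the proximal tubule through the sodium-coupled apical transporter ASBT, encoded by Slc10a2. They leave the cell on the blood side through OST, a transporter that needs both its α subunit (Slc51a) and its β subunit (Slc51b), which also carries conjugated steroids. FXR (Nr1h4) is a nuclear receptor that binds bile acids, pairs with RXR and raises transcription of both OST subunits and of SHP (Nr0b2), a receptor without a DNA binding domain that represses other nuclear receptors. The OATP proteins (Slco genes) take up organic anions, and the MRP pumps of the Abcc family use ATP to export glucuronide, glutathione and sulfate conjugates.

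Both OST subunits and ASBT were lower in the 3 LBR-null mice than in WT, FXR itself was not, and the conjugate exporters and OATP genes went in different directions. Of the 10 genes, all of which had a mean of at least 5 normalized counts over the 4 mice, 3 were at least 2-fold lower in the LBR-null mean (Slc51a, Slc51b and Slc10a2), beside 6.78% of 17283 genes. At least 2-fold higher was 1 gene (Slco1a1), beside 13.9% of all genes. Slc10a2 passed the minimum level only through the WT mouse and Slco1a1 only through the LBR-null mice, in each case the group where it is high. Every LBR-null library lay below both WT libraries for 5 genes, beside 25.7% of all genes, and above both for 2 genes, beside 25.5%. The libraries overlapped for 3 genes. Since the genes were chosen on this contrast, nothing is read from these shares.

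**Figure D1:**
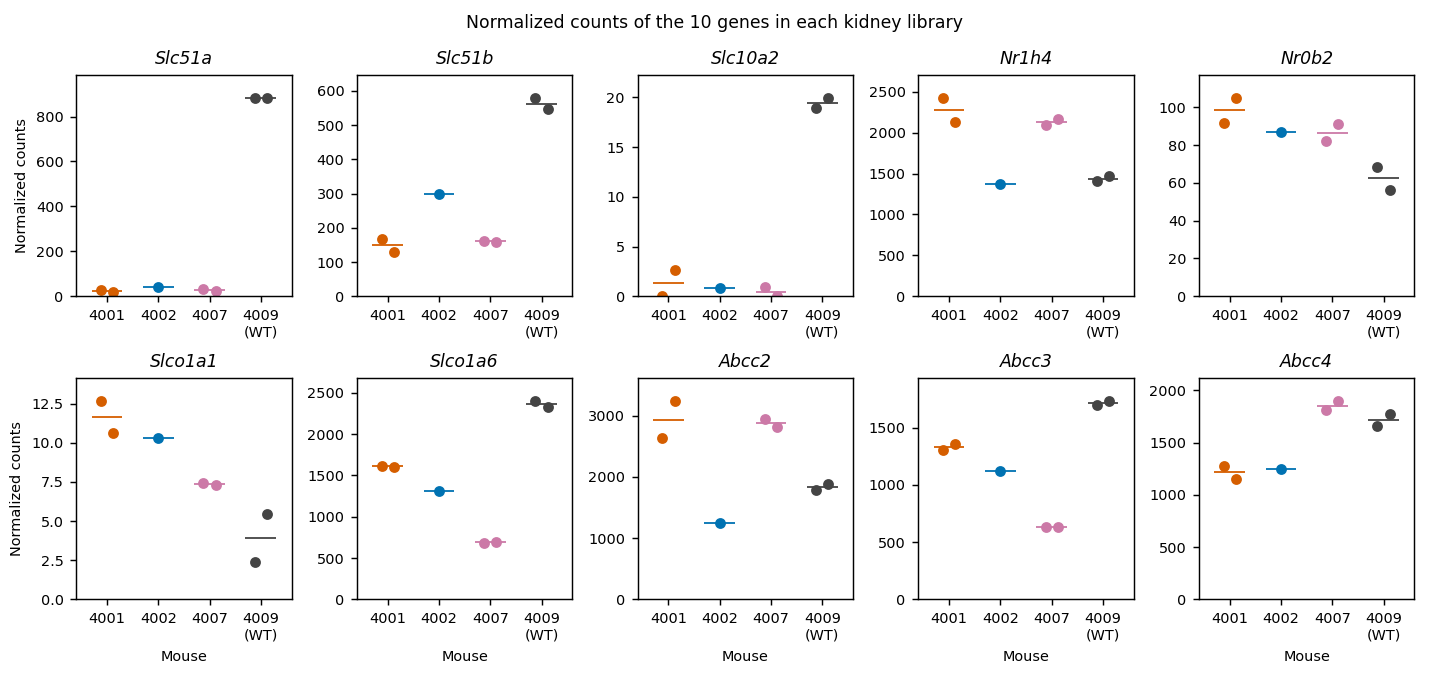
Each panel plots the normalized counts of 1 gene on the y axis (starting at 0) against the mouse on the x axis; points are libraries and bars are mouse means, with mouse 4009 as WT. Slc51a, Slc51b and Slc10a2 lie below WT in all 3 LBR-null mice, Slc51b least in mouse 4002 at 53.2% of WT, whereas Nr1h4, Abcc2 and Abcc4 overlap with WT.

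Slc51a encodes the α subunit of OST, the larger of its proteins. Its gene lies at chr16:32475608-32487965 on the minus strand of mm9. In LBR-null libraries Slc51a was at 27.6 and 19.5 normalized counts in mouse 4001, 41.3 in mouse 4002, and 30.7 and 22.8 in mouse 4007, against 881.2 and 881.1 in the WT libraries. These values rest on 22 to 48 reads per LBR-null library and on 974 and 1119 reads in WT. No LBR-null library came near the WT level. The mean of 30.5 ± 9.45 (SD, n = 3) was 28.9-fold lower than the WT value of 881. The log2 difference was −4.81 ± 0.41 (SD over mice), with −5.17 in mouse 4001, −4.38 in mouse 4002 and −4.99 in mouse 4007. Only 5 of 17283 genes had a lower log2 difference than Slc51a.

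Slc51b encodes the β subunit, a short protein with a single membrane span that brings the α subunit to the cell surface. It lies at chr9:65260560-65270580 on the minus strand. The level of Slc51b was 168 and 130 normalized counts in mouse 4001, 299 in mouse 4002, and 162 and 160 in mouse 4007, against 578 and 546 in WT. It was lower than WT in every LBR-null library, with mouse 4002 the highest of the LBR-null mice. The mean of 203 ± 83.7 (SD, n = 3) was 2.77-fold below the WT value of 562, a log2 difference of −1.47 ± 0.55. Mouse 4002 alone, at 53.2% of WT, had a log2 difference of −0.91 and did not reach a 2-fold difference. Mice 4001 and 4007 were at 26.4% and 28.6% of WT.

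The subunits differed by unequal amounts. Divided by exonic length, Slc51a stood at 0.465 and 0.492 of Slc51b in the WT libraries. In the LBR-null libraries this ratio of levels was 0.0501 and 0.0460 in mouse 4001, 0.0421 in mouse 4002, and 0.0578 and 0.0436 in mouse 4007. The ratio was of one size in the 3 LBR-null mice although Slc51b itself was higher in mouse 4002, since Slc51a was also highest there. Per exonic kilobase, WT held 551 normalized counts of Slc51a and 1152 of Slc51b, and LBR-null mice held 19.1 and 416. A ratio within a library does not depend on the size factor, but the division by length does not change the fold between genotypes and rests on the 488 exonic bases annotated for Slc51b and the 1600 for Slc51a.

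**Figure D2:**
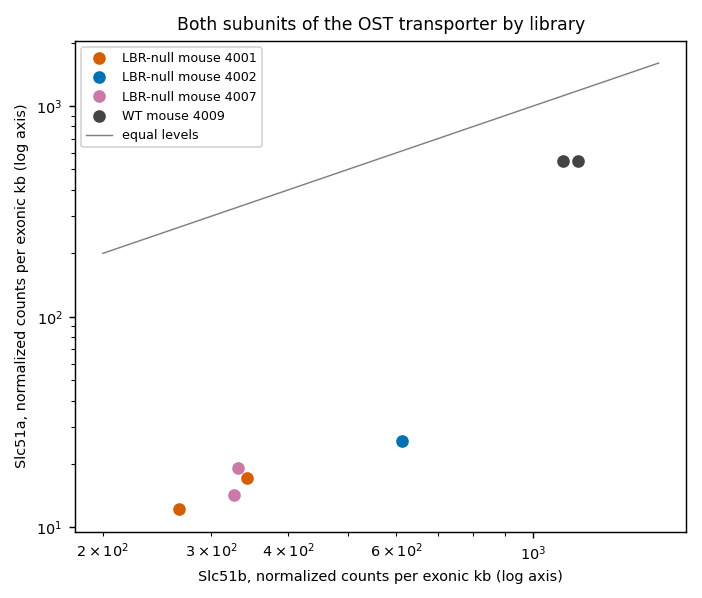
Each point is 1 library, with Slc51b on the x axis and Slc51a on the y axis, both in normalized counts per exonic kilobase on log axes, and the line marks equal levels. Both WT libraries stand at the upper right with Slc51a at 0.465 to 0.492 of Slc51b, and the 5 LBR-null libraries stand lower on both axes with ratios of 0.0421 to 0.0578.

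Slc10a2, the gene of the apical transporter ASBT, lies at chr8:5085623-5105232 on the minus strand and was a low gene in these kidneys. It was at 0 and 2.66 normalized counts in mouse 4001, 0.860 in mouse 4002, and 0.931 and 0 in mouse 4007, against 18.9 and 19.9 in WT. In reads, the 5 LBR-null libraries held 5 in total and the 2 WT libraries held 46. The ratio of LBR-null to WT, scaled for depth, was 0.0484. On the log2(normalized counts + 1) scale, which understates the change of low genes, the difference was −3.44 ± 0.33 (SD, n = 3). Mouse 4002 alone had a difference of −3.46. All LBR-null libraries lay below both WT libraries, and differences among the LBR-null mice were not detectable at this depth.

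The stretches of 250 bases upstream of the starts of these 3 genes, those that were at least 2-fold lower, are printed with their mm9 positions, since these genes encode the entry and exit steps of 1 bile acid route. The sequences come from the RefSeq promoter table (build GRCm38.p6), were placed in mm9 by an exact match and are written 5′ to 3′ on the strand of the gene, so that the RefSeq start follows the last base. The gene positions given here are those of GENCODE, whose start is the same for Slc51a and Slc51b and lies 55 bases further downstream for Slc10a2. Capitals mark the nuclear receptor hexamer AGGTCA or its complement TGACCT and the E-box CACGTG, both found by a search of both strands.
Slc51a, chr16:32487966-32488215, minus strand: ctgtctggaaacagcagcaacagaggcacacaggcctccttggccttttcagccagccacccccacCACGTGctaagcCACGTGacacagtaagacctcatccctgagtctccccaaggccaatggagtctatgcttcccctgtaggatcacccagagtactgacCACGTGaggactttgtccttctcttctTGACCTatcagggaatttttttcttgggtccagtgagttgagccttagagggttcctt
Slc51b, chr9:65270581-65270830, minus strand: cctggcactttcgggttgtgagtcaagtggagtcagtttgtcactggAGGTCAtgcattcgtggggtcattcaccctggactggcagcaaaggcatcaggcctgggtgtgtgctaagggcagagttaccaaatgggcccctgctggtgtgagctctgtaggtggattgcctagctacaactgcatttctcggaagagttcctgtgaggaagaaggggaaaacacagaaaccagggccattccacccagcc
Slc10a2, chr8:5105288-5105537, minus strand: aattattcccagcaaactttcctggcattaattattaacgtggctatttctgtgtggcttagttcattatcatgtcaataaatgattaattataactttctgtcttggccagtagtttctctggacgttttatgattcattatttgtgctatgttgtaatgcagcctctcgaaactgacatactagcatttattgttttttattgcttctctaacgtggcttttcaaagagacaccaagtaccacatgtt

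The window of Slc51a holds 3 E-boxes, whose first bases lie 184, 172 and 85 bases before the start, and 1 nuclear receptor hexamer at 58 bases. That of Slc51b holds 1 nuclear receptor hexamer at 203 bases and no E-box. That of Slc10a2 holds neither motif and is in lower case throughout. None of the marked motifs overlaps another. The E-box, the site of a family of basic helix-loop-helix factors, was added to the search after the sequences had been read.

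The motifs were counted in the windows of all genes for comparison. Of 32851 windows of 250 bases, 14.0% held the nuclear receptor hexamer and 6.02% the E-box. At least 3 E-boxes, as upstream of Slc51a, stood in 20 windows (0.0609%). Of the 10 genes, 9 had a window in the table, Abcc3 being the exception, and Abcc4 had 2 windows. Nuclear receptor hexamers also stood in the windows of Nr1h4, Slco1a1 and Abcc2, and E-boxes in those of Nr0b2 and Abcc4. The window of Nr1h4 ends 26927 bases inside the GENCODE gene and that of Abcc2 116 bases inside it, so these hexamers lie before the RefSeq start but not before the GENCODE start. The inverted repeat of the nuclear receptor hexamer with 1 base between, which FXR binds together with RXR, was sought with up to 2 mismatches, stood in 0.959% of all windows and in none of those of the 9 genes. A match is a description of letters in a window.

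The study groups genes by CpG islands, so the windows were also read for CpG content, here over 300 bases that reach past the start. A GC content of at least 50% with an observed over expected CpG ratio above 0.6 was met by 33.4% of all windows. Among the 9 genes it was met by 1, Abcc4, with a GC content of 72.7% and a ratio of 1.04 in its first window, and not by the other 8. Slc51a had a GC content of 52.0% and a ratio of 0.148, and Slc51b had 55.7% and 0.175. Slc10a2 had a GC content of 36.0% and a ratio of 0.515. These short windows are not the island classes of the study.

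FXR, the receptor that drives both OST genes, did not follow them. Nr1h4 lies at chr10:88916979-88996330 on the minus strand. It was at 2419 and 2133 normalized counts in mouse 4001, 1372 in mouse 4002, and 2087 and 2167 in mouse 4007, against 1406 and 1471 in WT. Mice 4001 and 4007 were above WT, at 158% and 148% of it, and mouse 4002 was at 95.4%, so the groups overlapped. The mean of 1925 ± 485 (SD, n = 3) against 1438 gave a log2 difference of 0.42 ± 0.40, a size close to its own spread over mice. Per exonic kilobase Nr1h4 had the highest mean of the 10 genes in LBR-null mice, at 836 normalized counts, and was second to Slc51b in WT, at 625, as it was in mouse 4002, where Slc51b was at 613 and Nr1h4 at 596.

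Nr0b2, which encodes SHP and is a classical FXR target, was one of 2 genes above WT in every LBR-null library. It lies at chr4:133109291-133112451 on the plus strand. It was at 91.9 and 104.7 normalized counts in mouse 4001, 86.8 in mouse 4002, and 82.0 and 91.1 in mouse 4007, against 68.5 and 56.1 in WT. The mean of 90.6 ± 6.69 (SD, n = 3) was 1.45 times the WT value of 62.3, a log2 difference of 0.53 ± 0.10. The mice were close together, with log2 differences of 0.65, 0.47 and 0.47 in mice 4001, 4002 and 4007. The gap between the WT libraries mattered as much as the gap between mice: against the second or the first WT library alone the difference was 0.68 or 0.40. Per exonic kilobase, Nr0b2 was at 0.0772 to 0.129 of Nr1h4 in LBR-null libraries and at 0.0776 and 0.0992 in WT, so the ranges of this ratio overlapped.

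FXR and its targets in this set therefore did not share a direction. The RNA of FXR and of SHP lay above the WT level in mice 4001 and 4007, while the OST subunits lay below it in the same libraries. In mouse 4002, Nr1h4 had a log2 difference of −0.07 and Nr0b2 of 0.47, beside −4.38 for Slc51a. RNA levels do not measure the activity of the receptor, and bile acid levels were not analysed here.

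**Figure D3:**
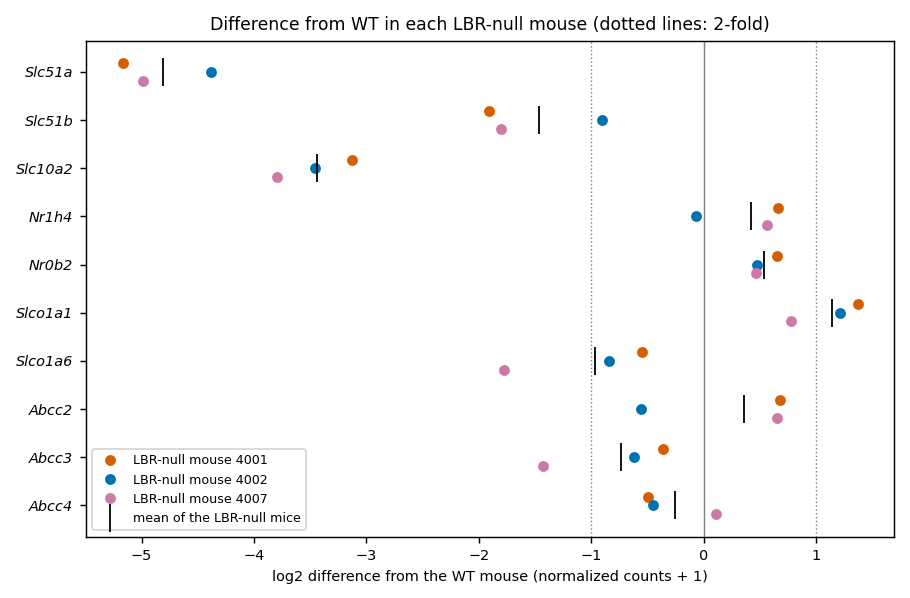
The x axis is the log2 difference of each LBR-null mouse from the WT mouse, on normalized counts + 1, with 1 row per gene; points are mice, bars are the mean of the LBR-null mice and dotted lines mark 2-fold. Mouse 4002 lies apart from mice 4001 and 4007 for Slc51b, Nr1h4 and Abcc2, and mouse 4007 lies apart for Slco1a6, Abcc3 and Abcc4.

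The OATP genes lie side by side on chromosome 6 and differed in direction. Slco1a6 (chr6:142034282-142157042, minus strand), the abundant one, was at 1613 and 1607 normalized counts in mouse 4001, 1317 in mouse 4002, and 685 and 694 in mouse 4007, against 2395 and 2329 in WT. All LBR-null libraries were below WT, and mouse 4007 was the lowest. The mean of 1206 ± 470 (SD, n = 3) against 2362 was 1.96-fold lower, just short of 2-fold, with a log2 difference of −0.97 ± 0.64. Mice 4001, 4002 and 4007 had log2 differences of −0.55, −0.84 and −1.77.

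Slco1a1 (chr6:141855803-141895483, minus strand), whose protein Oatp1a1 takes up conjugated steroids and bile acids in liver and kidney, was near the detection limit. It was at 12.6 and 10.6 normalized counts in mouse 4001, 10.3 in mouse 4002, and 7.45 and 7.29 in mouse 4007, against 2.36 and 5.43 in WT. LBR-null libraries held 8 to 12 reads each and WT libraries held 3 and 6. The LBR-null libraries all lay above WT, with 51 reads in 5 libraries against 9 in 2. The depth-scaled ratio was 2.52. The log2 difference was 1.14 ± 0.31 (SD, n = 3), with 1.21 in mouse 4002, and it was 0.75, under 2-fold, when WT was represented by its second library alone. The coding sequences of Slco1a1 and Slco1a6 are 84.0% identical, and their longest shared run of 96 bases is shorter than the 150 base reads. Across the 4 Slco1a genes compared the identity was 84.0% to 89.3%, so how reads were assigned among them is uncertain, most of all for a gene with as few reads as Slco1a1.

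Of the conjugate exporters, MRP2 and MRP3 differed in opposite directions in 2 of the 3 mice. Abcc2 (chr19:43856682-43912441, plus strand) encodes MRP2, which pumps conjugates across the apical membrane. It was at 2632 and 3231 normalized counts in mouse 4001, 1240 in mouse 4002, and 2941 and 2815 in mouse 4007, against 1781 and 1879 in WT. Mice 4001 and 4007 lay above WT and mouse 4002 lay below it. The mean of 2350 ± 962 (SD, n = 3) against 1830 gave a log2 difference of 0.36 ± 0.71, smaller than the spread between mice, with 0.68, −0.56 and 0.65 in mice 4001, 4002 and 4007.

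Abcc3 (chr11:94204612-94254311, minus strand) encodes MRP3, an exporter of the basolateral membrane. It was at 1309 and 1354 normalized counts in mouse 4001, 1118 in mouse 4002, and 636 and 636 in mouse 4007, against 1699 and 1729 in WT. Every LBR-null library lay below WT, and the mean of 1028 ± 356 (SD, n = 3) was at 60.0% of the WT value of 1714. The log2 difference was −0.74 ± 0.56, from −0.36 in mouse 4001 through −0.62 in mouse 4002 to −1.43 in mouse 4007. This is the same order of mice as for Slco1a6.

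The ratio of Abcc2 to Abcc3 showed how far these pumps parted in each kidney. Per exonic kilobase it was 1.04 and 1.08 in the WT libraries and 1.10 in mouse 4002. It was 1.99 and 2.36 in mouse 4001, and 4.58 and 4.38 in mouse 4007. The mouse with WT-like Xist and Ddx3y thus also had a WT-like ratio, and the part of sex in this was not tested.

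Abcc4 (chr14:118881914-119105441, minus strand) encodes MRP4, which exports conjugated steroids, bile acids and urate. It was at 1272 and 1155 normalized counts in mouse 4001, 1251 in mouse 4002, and 1809 and 1892 in mouse 4007, against 1656 and 1770 in WT. Mouse 4007 was above WT and the other two mice were below. The mean of 1438 ± 357 (SD, n = 3) against 1713 gave a log2 difference of −0.25 ± 0.34, with −0.45 in mouse 4002. Per exonic kilobase the 3 pumps were nearly level in WT, at 319 normalized counts for Abcc2, 301 for Abcc3 and 299 for Abcc4, whereas in LBR-null means they stood at 409, 181 and 251.

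Per exonic kilobase, the order of the 10 genes in WT was Slc51b, Nr1h4, Slco1a6 and Slc51a, then the 3 Abcc genes, then Nr0b2, Slc10a2 and Slco1a1. Nr1h4 at 625 and Slco1a6 at 620 normalized counts per kilobase did not differ beyond the gap between the WT libraries, nor did Abcc3 and Abcc4. In LBR-null mice the order of the means was Nr1h4, Slc51b, Abcc2, Slco1a6, Abcc4, Abcc3, Nr0b2, Slc51a, Slco1a1 and Slc10a2. Slc51a stood at 551 in WT, among the abundant genes, and at 19.1 in LBR-null mice, below Nr0b2 at 80.0. The first 6 genes of that order each overlapped over mice with the next among them, so their order is that of the means alone. The last 4 kept their order in each mouse.

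How far the LBR-null mice differed from each other can be set beside the agreement of libraries from one mouse. For Slco1a6 and Abcc3 the libraries of a mouse differed by at most 0.04 and 0.05 on the log2 scale, while the LBR-null mice spanned 1.22 and 1.06. For Abcc2 these values were 0.30 and 1.24, and for Nr1h4 0.18 and 0.73. Repeat libraries come from 1 kidney, so their gap holds no variation between animals. Nr0b2, Slc10a2 and Slco1a1 had larger gaps between libraries of a mouse (0.28, 1.87 and 0.93) than between LBR-null mice (0.18, 0.67 and 0.59).

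Most proximal tubule markers were at a lower level in the same kidneys. In bulk tissue, fewer cells of a type and less RNA per cell cannot be told apart. The summed level of 14 proximal tubule markers was 84512 to 109041 normalized counts in LBR-null libraries and 261904 to 264448 in WT. Every LBR-null library lay below WT for 12 of the 14 and above it for 2, Slc5a12 and Aqp1, beside 25.7% and 25.5% of all genes. Of the 14, 10 were at least 2-fold lower in the mean and 1 at least 2-fold higher, beside 6.78% and 13.9% of all genes. The median log2 difference of the markers was −1.71. Slc51a lay 3.09 below this median on the log2 scale, and 0 of the 14 markers had a lower difference. Slc10a2 lay 1.72 below it, with 2 markers lower. This gap depends on the pseudocount, since the log2 difference of Slc10a2 was −3.84 with 0.5 and −2.05 with 5. Slc51b lay 0.25 above the marker median, with 9 markers lower, so its difference was of the size common among tubule markers. The other 7 genes lay 0.74 to 2.85 above the marker median. The part of tubule content in any of these differences was not tested.

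Markers of other cells were read in the same way. The summed level of 8 markers of other nephron segments was 90779 to 184105 normalized counts in LBR-null libraries and 111020 to 112157 in WT, with 3 of 8 below and 1 above WT in every library, beside the same 25.7% and 25.5% of all genes. Hepatocyte markers, which include plasma protein genes that kidney also expresses, summed to 10222 to 28746 against 6499 to 6717, and 7 of 8 were at least 2-fold higher in the mean, beside 13.9% of all genes, with 4 of 8 above WT in every library, beside 25.5%. Without mouse 4001, 3 of 8 were at least 2-fold higher, beside 13% of all genes. The hepatocyte markers were highest in mouse 4001, with a sum of 24322 and a median log2 difference over the 8 genes of 2.47. Mouse 4002 had 11858 and 0.51, and mouse 4007 had 10293 and 0.59, beside a WT mean of 6608. Of the ileal enterocyte markers, which share the bile acid route with the kidney, Alpi was at 0 in every library and 4 of 8 were under the minimum level. Their sum, 1473 to 2361 against 3215 to 3309, was mostly Vil1, a gene of the tubule brush border as well. The part of these cell types in the results was not tested.

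The rest of the bile acid pathway was examined in 7 lists with 70 other genes, of which 60 reached the minimum level. With limma across 17283 genes, 0 genes (0%) passed both limits, an adjusted p under 0.05 and a difference of 2-fold, and at an unadjusted p under 0.05 there were 1852 higher and 1391 lower. The edgeR test called 28 genes (0.162%) and DESeq2 called 1117 (6.46%). Of the 60 pathway genes limma called 0, edgeR 0, and DESeq2 4 lower and 4 higher, while at an unadjusted p under 0.05 limma had 10 lower and 8 higher. Those that DESeq2 called higher were Nr1i3 (DESeq2 adjusted p = 6.3e-11), Cyp27a1 (0.0020), Slc10a6 (0.012) and Abcb11 (0.014), and those it called lower were Slc10a1 (7.4e-09), Amacr (0.020), Akr1d1 (0.042) and Pltp (0.042). Amacr, a racemase of bile acid synthesis, was named after its values were seen. At least 2-fold lower were 7 and at least 2-fold higher 12, beside 6.78% and 13.9% of all genes tested, and the shorter lists that follow have the same background. Without mouse 4001, where the hepatocyte markers were highest, these counts were 7 and 7, beside 7.24% and 13% of all genes. Without mouse 4007 the counts of pathway genes were 5 and 12, beside 6.46% and 13.3%. Their median log2 difference was 0.15, beside 0.03 for all genes tested and −0.49 for the 10 transporter and receptor genes. With 1 WT mouse and 2 residual degrees of freedom, the p-values assume that WT mice vary as the LBR-null mice do.

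Among the other SLC10 genes, relatives of ASBT, Slc10a1 stood out in size. It encodes NTCP, the sodium-coupled bile acid carrier of hepatocytes, and was at a mean of 42.6 ± 15.3 normalized counts (SD, n = 3) in LBR-null mice and at 456 in WT, 10.7-fold less. Its log2 difference of −3.39 ± 0.59 had an adjusted p of 0.0869 in limma. Slc10a6, a carrier of sulfated steroids, was at 275 ± 118 against 71.4, with a log2 difference of 1.93 ± 0.64 and a limma adjusted p of 0.137. Slc10a5 was at 113 to 170 in LBR-null libraries against 222 and 224 in WT. Of 6 tested genes of this list, 1 was at least 2-fold lower and 1 at least 2-fold higher, and DESeq2 called 1 in each direction. All LBR-null libraries lay below WT for 2 of the 6 and above it for 1, beside 25.7% and 25.5% of all genes.

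Enzymes of bile acid synthesis differed in both directions, 3 of 16 at least 2-fold lower and 4 at least 2-fold higher, beside 6.78% and 13.9% of all genes. Without mouse 4001 these counts were 4 and 2, beside 7.24% and 13% of all genes. Without mouse 4007 they were 1 and 4, beside 6.46% and 13.3%. Cyp27a1, which hydroxylates the sterol side chain, was at a mean of 1872 ± 961 normalized counts (SD, n = 3) in LBR-null mice and at 407 in WT, a log2 difference of 2.20 ± 0.68 with a limma adjusted p of 0.115. Cyp7a1, the rate-limiting enzyme of bile acid synthesis in liver, had 53 reads in 5 LBR-null libraries against 7 in 2 WT libraries, a depth-scaled ratio of 3.37 (95% exact interval 1.53 to 8.79, for counting error only). Cyp7a1 was also highest in mouse 4001, at 4.19 times WT, beside 3.38 and 2.42 in mice 4002 and 4007. Its log2 difference without mouse 4001 was 1.28. It reached the minimum level only through the LBR-null mice, where it is high, so its interval is no test of the genotype difference. Akr1d1, the steroid 5β-reductase, was at 36.2 ± 1.63 against 101, with −1.45 ± 0.06 on the log2 scale and a limma adjusted p of 0.133. None of these passed the limma limits.

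Among receptors, the constitutive androstane receptor Nr1i3, a sensor of foreign compounds and bile acids, was at a mean of 324 ± 133 normalized counts (SD, n = 3) in LBR-null mice and at 18.2 in WT, 17.8 times as much. Its log2 difference of 4.08 ± 0.57 had the lowest adjusted p of the pathway genes named here, 0.0695 in limma. Nr1h3, the oxysterol receptor LXRα, was at 390 ± 67.1 against 794, and S1pr2, a membrane receptor for conjugated bile acids, at 102 ± 33.8 against 185. Of 11 receptors tested, 1 was at least 2-fold lower and 2 at least 2-fold higher, the latter 1 without mouse 4001. All LBR-null libraries lay below WT for 3 and above it for 4, beside 25.7% and 25.5% of all genes.

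Other FXR targets did not all share a direction either, although the median log2 difference of those tested was 0.45, above 0. Abcb11, the bile salt export pump, was at a mean of 64.7 ± 30.9 normalized counts (SD, n = 3) in LBR-null mice and at 11.8 in WT, with a log2 difference of 2.36 ± 0.65 and a limma adjusted p of 0.124. Kng1, the precursor of kinins, was at 357 ± 147 against 153, and Pltp, the phospholipid transfer protein, at 167 ± 11.8 against 342. Kng1, which liver also makes as a plasma protein, was highest in mouse 4001, as the hepatocyte markers were, at 3.44 times WT beside 1.94 in mouse 4002 and 1.64 in mouse 4007. Without mouse 4001 its log2 difference was 0.83, under 2-fold. Abcb11 was also highest in mouse 4001, at 8.45 times WT, beside 3.43 and 4.61 in mice 4002 and 4007. Of 10 listed targets 7 were tested, with 1 at least 2-fold lower and 2 at least 2-fold higher, and 0 and 1 without mouse 4001. For 4 of the 7, all LBR-null libraries lay above WT, and for 1 below, beside 25.5% and 25.7% of all genes.

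Other OATP genes and ABC exporters gave the same mixed picture. Of 9 OATP genes tested, 1 was at least 2-fold lower and 3 at least 2-fold higher. These last were low genes: Slco1b2 was at 41.7 ± 35.2 normalized counts (SD, n = 3) against 11.3, Slco1c1 at 29.8 ± 5.84 against 10.2, and Slco5a1 had 58 reads in 5 LBR-null libraries against 1 in 2 WT libraries. For Slco1b2 the mean was set by mouse 4001, at 7.30 times WT, where the hepatocyte markers were also highest. Mice 4002 and 4007 were at 1.91 and 1.88 times WT, and without mouse 4001 the log2 difference was 0.86 in place of 1.80, under 2-fold. The ratio for Slco5a1 was 25.8 with a 95% exact interval of 4.46 to 1038, which covers counting error only and no variation between mice. This gene too reached the minimum level only through the LBR-null mice, where it is high, so its interval is no test of the genotype difference. None of 7 other ABC exporters differed 2-fold, the largest differences being those of Abcc1 (MRP1), at 1890 ± 206 against 1138, and Abcg2 (BCRP), an apical exporter of urate and sulfates, at 3419 ± 360 against 5667. Across the 17 pathway genes named by their size of difference in each list, limma adjusted p-values ran from 0.0695 to 0.392. In mouse 4002 alone all 17 had the direction of the mean, but of those at least 2-fold different in the mean, Nr1h3 (−0.81), Kng1 (0.95) and Slco1b2 (0.87) were under 2-fold there, on the log2 scale.

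**Figure D4:**
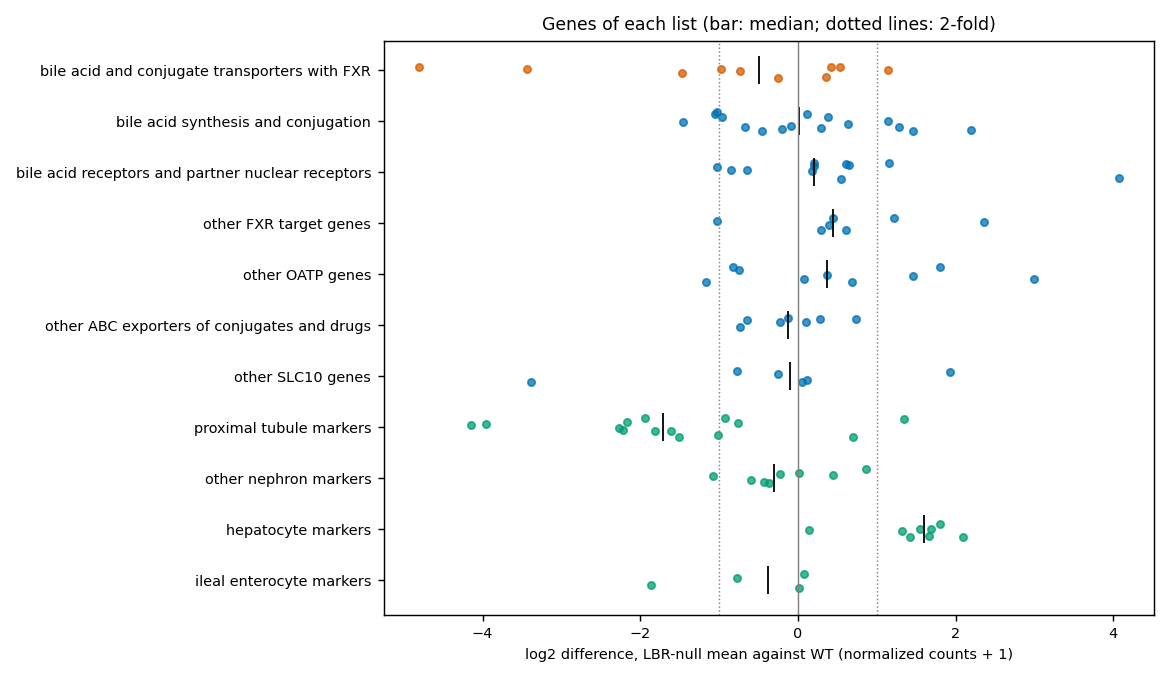
Each point is a gene at its log2 difference between the LBR-null mean and WT (x axis, normalized counts + 1), in rows by gene list, with a bar at the list median and dotted lines at 2-fold. The 10 genes described here run from −4.81 to 1.14 with a median of −0.49, and the proximal tubule markers have a median of −1.71.

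The genes most like Slc51a were sought by the distance between log2 differences from WT in the 3 LBR-null mice. The smallest root mean square distances were those of Slc22a22 (0.32), Akr1c21 (0.36), Smlr1 (0.42), Nat8 (0.45) and 9030619P08Rik (0.47), among genes with a mean of at least 5. Slc22a22, a renal carrier of prostaglandins, was at 17.1 ± 4.32 normalized counts (SD, n = 3) in LBR-null mice and at 551 in WT. Akr1c21, a hydroxysteroid dehydrogenase of mouse kidney, was at 258 ± 89.7 against 6017. Nat8, an acetyltransferase of mercapturic acid formation, was at 4.21 ± 3.12 against 120.2. Smlr1 and Nat8 passed the minimum level only through the WT mouse, with 0 to 2 and 1 to 9 reads per LBR-null library, so the size of their differences depends on the pseudocount. Akr1c21 and Nat8 belong to families of close relatives, so how reads were assigned within them is uncertain.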

How the data were processed

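The authors used STAR 2.6.0 to align 150 base paired-end reads to mm9. The deposited values, 1 table per library, are a signal for each symbol: read counts divided by a DESeq2 1.25.1 size factor. The counting program, its annotation and its use of strand are not given in the sources used here. Values were whole multiples of 1 read within 0.01 read (100% of values), so the reads were recovered. The 10 genes, the gene lists and the tests were chosen with earlier results of these data known. Libraries were averaged per mouse. A log2 difference is that of (mean + 1) over the LBR-null mice and WT, with the SD over mice. The log2(normalized counts + 1) of 4 mice were fitted in R 4.3.3 with limma 3.58.1 (trended eBayes, Benjamini-Hochberg adjustment), over the 17283 genes whose mean reached 5. The alternatives were DESeq2 1.42.0 and the quasi-likelihood test of edgeR 4.0.16 on reads summed per mouse, other scalings and pseudocounts, no filter on low values, a fit of 7 libraries with the mouse as a random block, mouse 4002 alone, and mice or WT libraries left out. DESeq2 left 671 genes without an adjusted p. The fits were also run on simulated counts, to check that the code returned set changes in the right direction. Simulated counts cannot show how far WT mice vary, so this run does not vouch for the calls.

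Named were all 10 genes, up to 3 genes per pathway list with the largest log2 difference among those with LBR-null libraries on 1 side of both WT libraries, and the 5 genes nearest to Slc51a. A further result under this rule is not reported here. Exonic lengths and gene positions are those of GENCODE vM1 on mm9, where Slc51a and Slc51b are named Osta and Ostb. Whether the repeat libraries of a mouse came from separate aliquots is not stated, so the spread between them may be technical. The depth, 20694016 to 26333284 reads on genes, limits genes with few reads.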

Additional observations from a re-analysis of the deposited data

Results flagged for a closer look

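Among 35 sets of 5 LBR-null libraries, 2 held a library whose gap to its nearest neighbour was large against the range of the set. For independent values, chance gives such a gap in about 1 of 20 sets. Libraries of a mouse are not independent, and mouse 4002 has a single library, so this rate does not apply here. Slc51b was at 299 normalized counts in the library of mouse 4002, with 130 to 168 in the other LBR-null libraries and 546 to 578 in WT. Ddx3y was at 1516 normalized counts in the same library, with 39.2 to 149 in the others and 1269 to 1299 in WT.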

How the results depend on the processing

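No paired analysis was possible because replicate numbers in the labels only count libraries of 1 mouse. Of 110 values of the 10 genes under alternatives, 99 stayed within the spread between mice in the same direction, 9 moved further and 2 reversed: with mouse 4002 alone the log2 difference was −0.068 for Nr1h4 and −0.56 for Abcc2. For Slc10a2 a pseudocount of 0.5 gave −3.84 and 5 gave −2.05. The count of genes at least 2-fold higher was 0 in place of 1 with a pseudocount of 5, where Slco1a1 was at 0.73, and 0 to 1 when a mouse or WT library was left out (0 without WT library 1). The count at least 2-fold lower was 2 to 4 in place of 3. Genes above both WT libraries numbered 2 to 4 in place of 2 with a mouse left out (4 without mouse 4002, added after seeing the data), and those below numbered 5 to 6 in place of 5. Of 187 values of the 17 named pathway genes, 175 stayed within the spread, 12 moved and 0 reversed. Calls over all genes, 0 with limma on mouse means, were 28 with edgeR, 1117 with DESeq2, 847 with the mouse as a random block, and 0 to 1163 with a mouse or WT library left out (1163 without mouse 4001, 625 without mouse 4002, 1 without WT library 1). Calls among the pathway genes, also 0, were 8 with DESeq2, 8 with the random block, and 0 to 6 with a mouse or WT library left out (6 without mouse 4001, 5 without mouse 4002). Counts of 2-fold genes per list with a mouse left out were added after seeing the data. The cause was not tested. Depth limits Slc10a2, Slco1a1, Cyp7a1 and Slco5a1.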
